A study of Mus musculus with 2 samples.

Results

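C1q-positive interstitial macrophages without Spp1 are described here in 2 single-cell RNA sequencing (scRNA-seq) libraries of mouse lung, 1 from Pclaf WT and 1 from Pclaf KO mice, both taken 1 week after bleomycin. The members were selected on measured values, so the genes of the selection are given below as a description only. A kept barcode had over 200 but under 5000 genes detected, with less than 20% of its UMIs mitochondrial (UMIs are unique molecular identifiers, each counting 1 captured mRNA molecule). A member then had at least 2 of the 3 C1q genes detected, at least 1 UMI of both Fcer1g and Tyrobp, and Spp1 under 10 per 10000 UMIs. It also had fewer than 3 of 7 alveolar macrophage genes (Chil3, Marco, Ear1, Siglecf, Krt79, Fabp1 and Plet1), no UMI of Cd3e, Cd79a or Epcam, and fewer than 3 of 5 mitosis genes (Mki67, Top2a, Birc5, Cenpf and Ube2c). In all, 1537 of 45824 kept cells were members: 1495 of 30187 cells in WT (4.95%, exact binomial 95% interval 4.71 to 5.20) and 42 of 15637 in KO (0.269%, 0.194 to 0.363). The labels and methods describe a sort for epithelial cells, although both libraries hold cells of other kinds. Whether it was applied is not clear from the sources, so the shares do not measure how common the cells were in the tissue.

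Both groups were mice of 8 to 10 weeks that received bleomycin (1.35 U/kg in the deposited labels), and 16000 cells were loaded per group. Pclaf encodes a factor that binds the replication clamp PCNA, and Pclaf KO mice lack the gene in the germline, that is, in every cell and not only in the epithelium. The number of animals behind each library is not given in the sources used here. Since each genotype has 1 library, differences between WT and KO have no replicate check, and no test or p-value is given. Intervals on summed UMIs (exact Poisson), on their ratios (exact conditional) and on shares of cells (Clopper-Pearson) are 95% intervals that cover counting error only.

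C1q is the first component of the classical complement pathway, and tissue macrophages are its main source in the body. It is built from 3 chains, encoded by C1qa, C1qb and C1qc, that bind antibody and dying cells. Fcer1g and Tyrobp encode small adapter proteins through which Fc receptors, Trem2 and related receptors signal. In the lung, interstitial macrophages lie in the walls around airways and vessels, whereas alveolar macrophages lie in the airspace. The interstitial cells are known to fall into a kind rich in Lyve1, Folr2 and Mrc1 near vessels and a kind rich in MHC class II near airways and nerves. After bleomycin, monocytes enter the tissue, and some of the macrophages that form from them turn on Spp1 (osteopontin) with genes for lipid handling and lysosomes. The rule leaves that Spp1-high state out.

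Several features of the libraries bear on all values below. The labels and the methods describe staining for CD31, CD45 and EPCAM and a sort of the epithelial cells, yet the members have no Epcam UMI by rule and carry the genes of CD45-positive myeloid cells. The WT library held 98171818 UMIs on 30669 barcodes, more barcodes than the cells loaded, and the KO library held 111267567 UMIs on 17172 barcodes. A kept cell had a median of 2127 UMIs in WT and 5957 in KO, whereas the members had close median UMIs, at 4217 in WT and 3988 in KO. Their lower quartiles (2532.5 and 908.5 UMIs) and median genes (1796 and 1502.5) were lower in KO, where 12 of 42 members held under 1000 UMIs against 137 of 1495 in WT. Summed over cells, the WT members held 6952251 UMIs and the KO members 172039. A gene with 0 UMIs could therefore still be present at up to 0.432 CPM (UMIs of a gene per 1000000 UMIs) in WT and 17.4 CPM in KO (3 counts). The libraries shared 138 kept barcodes but no member barcode, while 9 barcodes of WT members and 1 of a KO member were among the kept barcodes of the other library. The methods describe male mice, yet both libraries held cells with UMIs of Xist, the RNA of the inactive X chromosome, as well as cells with Y-linked UMIs. Among members, Xist was found in 343 WT cells (22.9%) and 18 KO cells (42.9%), Y-linked genes in 618 (41.3%) and 5 (11.9%), and both in 65 (4.35%) and 0.

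RNA of other cell types was present in the members and differed between the libraries. To compare cells of unlike depth, each was thinned at random to 1000 UMIs, which left out 137 WT and 12 KO members. At that depth, 262 of 1358 WT members (19.3%) and 1 of 30 KO members (3.33%) had at least 2 of 8 endothelial markers, and 60 (4.42%) and 12 (40.0%) had at least 2 of 10 alveolar type 2 (AT2) markers. The other myeloid cells of each library showed the same kind of mixture: 2 or more AT2 markers were found in 4.09% of Spp1-high, 2.21% of alveolar and 7.89% of monocyte cells in WT against 36.8%, 35.9% and 55.2% in KO. For 2 or more endothelial markers the shares were 12.3%, 17.7% and 15.5% in WT and 0%, 7.69% and 0% in KO. Without thinning, 2 or more mesenchymal markers were found in 45.4% of WT and 31.0% of KO members (sums of 2810 and 4162 CPM). For airway and alveolar type 1 markers the shares were 23.9% and 40.5% (2612 and 16124 CPM). At that depth they were 35.9% and 4.76% for endothelial and 23.0% and 85.7% for AT2 markers. Endothelial cells were taken as kept cells with most of Cdh5, Pecam1, Cldn5 and Kdr detected and no UMI of Epcam, Ptprc, Fcer1g or Tyrobp. Cells with UMIs of these myeloid genes were thus left out, so shares of macrophage genes in endothelial cells can understate RNA from outside the cell. Endothelial cells, which do not make surfactant, had a median of 0% of their UMIs in AT2 markers in WT and 0.231% in KO, beside 0.0201% and 0.297% in the members. Scrublet, a doublet caller, marked 230 WT members (15.4%) and 0 KO members, and 182 of the 230 marked cells (79.1%) held at least 2 endothelial markers, against 354 of the 1265 others (28.0%). The part of free RNA and doublets in each result below was not tested beyond the values given beside it.

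The markers of the selection were at similar levels in both libraries. C1qa was at 2575 CPM in WT and 3505 in KO, C1qb at 2360 and 3081, and C1qc at 1376 and 1877. The adapters Fcer1g (1832 and 1564 CPM) and Tyrobp (1698 and 1924 CPM) were also present at like levels, and Spp1 was at 144 and 151 CPM. All 3 C1q genes were detected in 1163 WT members (77.8%) and 23 KO members (54.8%). Near the Spp1 limit, 148 WT and 5 KO members had 5 to under 10 Spp1 UMIs per 10000, and 157 WT and 7 KO cells lay just outside, at 10 to under 20. No Spp1 UMI was seen in 1013 WT and 32 KO members, and the median in the cells left out for Spp1 was 51.8 and 56.4 per 10000. A further 15 WT cells and no KO cell missed the rule by having exactly 3 alveolar macrophage genes.

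Genes outside the rule were checked against the macrophage label. All 18 listed markers of interstitial macrophages were measured in both libraries, with 2 or more of them detected in 1454 of 1495 WT members (97.3%) and 38 of 42 KO members (90.5%). This share does not set members apart, since it was 95.1% and 90.0% in Spp1-high cells, 97.2% and 96.6% in monocytes and 70.6% and 73.8% in endothelial cells. The summed level of these markers was 13712 and 22338 CPM in members, 5098 and 4795 CPM in monocytes, 3751 and 4065 CPM in alveolar macrophages and 1820 and 2089 CPM in endothelial cells, with Apoe the most abundant in members, and 22001 and 31120 CPM in Spp1-high cells. Csf1r, the receptor for the macrophage growth factor M-CSF, was at 475 CPM in WT and 482 in KO. The mannose receptor Mrc1 was at 511 and 471 CPM and the fractalkine receptor Cx3cr1 at 347 and 349. Markers of dendritic cells, which also hold MHC class II, were present at a low level: the 10 genes summed to 160 CPM in WT and 75.6 in KO, the most abundant being Fscn1 (26.0 CPM) in WT and Xcr1 (46.5 CPM, all 8 UMIs in 1 cell) in KO, and 93 WT members (6.22%) and no KO member had 2 or more. Flt3 and Zbtb46, which define conventional dendritic cells, were at 8.05 and 18.4 CPM in WT and at 0 UMIs in KO. The 8 neutrophil markers summed to 1053 CPM in WT, led by S100a9 (459 CPM), and to 145 CPM in KO, led by G0s2 (69.8 CPM). T and NK cell markers summed to 330 CPM in WT, with Ccl5 the most abundant, and to 17.4 CPM in KO, where Il7r alone was found.

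Genes of antigen presentation and of lysosomes were among those that differed between members and Spp1-high macrophages, and the upstream sequences of 4 such genes are shown first. MHC class II promoters are known for a shared CCAAT box, read GATTGG on the coding strand, next to sites for the RFX complex, and the coactivator Ciita is recruited by the factors bound there. Many lysosomal genes are known for a CLEAR box, TCACGTGA, which TFEB family factors bind. The sequences are the 130 bases before the RefSeq start (GRCm38.p6), 5′ to 3′ on the gene's strand, and the capitals mark GATTGG or its reverse complement CCAATC in the first 3 and the palindrome TCACGTGA in the last:
H2-Aa: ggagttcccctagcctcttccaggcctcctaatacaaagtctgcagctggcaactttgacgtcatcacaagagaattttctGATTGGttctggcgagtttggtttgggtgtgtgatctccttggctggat
H2-Eb1: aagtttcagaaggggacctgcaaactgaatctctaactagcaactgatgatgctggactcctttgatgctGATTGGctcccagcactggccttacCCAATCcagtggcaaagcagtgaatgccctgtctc
H2-DMb1: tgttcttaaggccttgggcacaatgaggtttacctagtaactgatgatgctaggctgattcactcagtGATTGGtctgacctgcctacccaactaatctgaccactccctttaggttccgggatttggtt
Ctsd: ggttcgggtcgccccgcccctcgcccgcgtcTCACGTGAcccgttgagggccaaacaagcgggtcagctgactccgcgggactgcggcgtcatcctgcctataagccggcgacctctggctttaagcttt

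The windows lie at chr17:34287824-34287953 (minus strand) for H2-Aa, chr17:34305737-34305866 (plus) for H2-Eb1, chr17:34153061-34153190 (plus) for H2-DMb1 and chr7:142387828-142387957 (minus) for Ctsd. H2-Aa and H2-Eb1 encode chains of the MHC class II molecules that show peptides to T cells, H2-DMb1 a chain of the molecule that loads the peptides, and Ctsd the lysosomal protease cathepsin D. In the 250 bases before the start, GATTGG or CCAATC was found in 7 of the 9 MHC class II genes with a window (13 listed), against 4783 of 32851 windows of all genes (14.6%). It began 49 bases before the start in H2-Aa, 60 in H2-Eb1, 62 in H2-DMb1, 58 in H2-Ob and 44 in H2-Oa, with 91 in H2-DMb2 and 199 in H2-DMa. H2-Eb1 and H2-DMb1 also shared the run aactgatgatgct, 89 and 92 bases before their starts. TCACGTGA was found in 2 of the 17 lysosomal genes with a window (21 listed), Ctsa and Ctsd, against 258 of all 32851 windows (0.785%). These matches are a description of letters and do not show that a factor was bound.

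Members were compared with Spp1-high macrophages, which met every condition of the rule but had Spp1 at 10 or more per 10000 UMIs (719 cells in WT, 40 in KO). Because Spp1 drew this line in the same cells, all differences in this comparison are descriptions. A gene was counted when its log2 ratio was at least 1 in size (2-fold) and its interval left out 0, among genes with at least 10 UMIs expected in the smaller sum. Of 11808 genes in WT, 1737 (14.7%) were higher in members past 2-fold and 257 (2.18%) lower. Of 2276 genes that could be assessed in both libraries, 111 (4.88%) were higher and 81 (3.56%) lower past 2-fold in WT and in KO alike. The scaling matters for this split: with TMM or RLE factors of edgeR in place of total UMIs, 71 and 72 genes were higher and 123 and 107 lower, because these factors move all WT ratios by -0.33 and -0.34 and all KO ratios by -0.09 and 0.03. The median ratio of all genes was 0.31 in WT and -0.01 in KO. Spp1-high cells were deeper than members in WT (median 6320 UMIs) and shallower in KO (868.5 UMIs, with 21 of 40 cells under 1000).

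Antigen presentation through MHC class II was higher in members. Of 8 genes assessed in both libraries, 6 were higher and 1 lower past 2-fold in both, against 4.88% and 3.56% of all genes. With TMM or RLE factors 4 were higher. In WT alone, 10 of 13 listed genes were higher (7 of 13 with TMM or RLE), against 14.7% of all genes under total UMIs. The invariant chain Cd74, which guides MHC class II through the cell, was at 10043 CPM in WT members and 11137 in KO members, against 3392 and 915 CPM in Spp1-high cells. All 3 MHC class II chains followed this order, with members above Spp1-high cells in both libraries. H2-Ab1 was at 4475 CPM (WT) and 3947 CPM (KO) in members and at 1305 and 230 CPM in Spp1-high cells, log2 ratios of 1.78 (1.74 to 1.82) and 4.10 (3.62 to 4.63). H2-Aa had ratios of 1.67 (1.63 to 1.71) and 3.25 (2.88 to 3.64), and H2-Eb1 of 1.98 (1.94 to 2.02) and 4.01 (3.55 to 4.51). The peptide loading chains H2-DMa (586 and 401 CPM against 260 and 96.0) and H2-DMb1 (352 and 355 CPM against 141 and 51.2) were the other members of this group past 2-fold in both. Ciita, the coactivator of these promoters, was assessed in WT only, at a ratio of 2.58 (2.29 to 2.89). The listed gene that was lower was Ctss (ratios of -1.59 and -1.38), a cathepsin that cuts the invariant chain and is also counted here with the lysosomal genes. The excess of MHC class II over Spp1-high cells was larger in KO, where Spp1-high cells were at much lower CPM than in WT while members differed less (Cd74 at 0.15, H2-Aa at -0.16 and H2-Ab1 at -0.18 for KO members over WT members). When all cells with 2 or more markers of other cell types (endothelial, mesenchymal, T, B and neutrophil genes, with no dendritic or AT2 gene among them) were left out, 6 of 8 genes were higher past 2-fold in both. Markers of other cells that carry MHC class II moved with these genes: all 9 assessed dendritic cell markers (median ratio 2.18) and 4 of 5 B cell markers were higher past 2-fold in WT members, where the dendritic list summed to 160 CPM against 40.7 CPM in Spp1-high cells and the B cell list to 152 CPM, led by Ighm, against 48.4 CPM. The dendritic list is not particular to members, as it summed to 249 CPM in WT monocytes and to 179 CPM, led by Zbtb46, in WT endothelial cells. No gene of the dendritic and B cell lists could be assessed in KO. AT2 markers were also higher in members, with 6 of 9 past 2-fold in both libraries (medians 2.23 in WT and 1.96 in KO). Their sum was 2066 against 586 CPM in Spp1-high cells of WT and 21315 against 5969 CPM in KO. The part of RNA from dendritic, B and AT2 cells in the MHC class II and Mgl2 values was not tested.

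**Figure D1:**
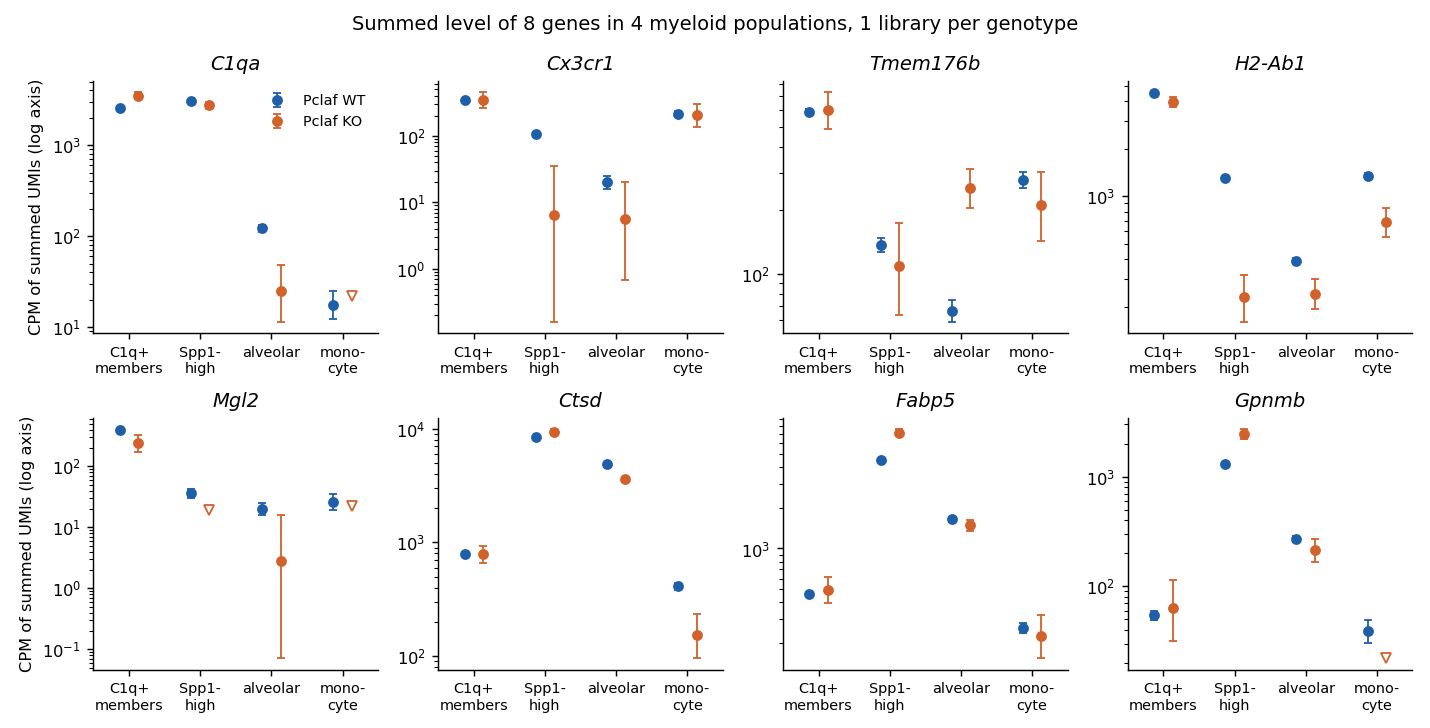
Levels of 8 genes (CPM, log axis) in members, Spp1-high macrophages, alveolar macrophages and classical monocytes of Pclaf WT (blue) and Pclaf KO (orange), with exact Poisson 95% intervals. Open triangles are genes with 0 UMIs, drawn at the floor of 3 counts. Members stand above Spp1-high cells for Cx3cr1, Tmem176b, H2-Ab1 and Mgl2 and below them for Ctsd, Fabp5 and Gpnmb in both libraries, while C1qa, which is part of the rule, is alike in both.

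Genes of the lipid-associated and lysosomal state were lower in members. Of the 13 lipid-associated genes other than Spp1 that were assessed in both libraries, 8 were lower past 2-fold in both and none higher, under total UMIs, TMM and RLE alike. Among all 2276 genes assessed in both, 3.56% were lower and 4.88% higher, shares that apply to each count of this paragraph. Gpnmb, a glycoprotein of lysosome-rich macrophages, was at 54.2 and 63.9 CPM in WT and KO members, against 1295 and 2450 CPM in Spp1-high cells, ratios of -4.58 (-4.73 to -4.43) and -5.26 (-6.27 to -4.40). Fabp5, a carrier of fatty acids, was at 462 and 494 CPM against 4514 and 7166 CPM (-3.29 and -3.86). Trem2, a lipid sensor that signals through Tyrobp, was lower by less (-1.71 and -1.33), as were Cd9 (-1.51 and -1.91), Lpl (-1.37 and -1.78), Lgals3 (-1.35 and -1.81) and Lipa (-1.34 and -1.64). Of 20 lysosomal genes, 12 were lower in both libraries (12 with TMM, 11 with RLE) and none higher. Ctsd was at 795 and 791 CPM against 8422 and 9418 CPM, ratios of -3.40 (-3.45 to -3.36) and -3.57 (-3.84 to -3.32). Cathepsin L (Ctsl, -2.28 and -2.47), cathepsin B (Ctsb, -1.92 and -1.89) and the saposin precursor Psap (-1.36 and -1.84) were lower as well. The ferritin chains Fth1 (-1.32 and -1.23) and Ftl1 (-1.81 and -1.76), which store iron, were among 3 of 7 iron genes that were lower. Of 12 genes of lipid handling, 6 were lower, and Apoe, the lipid carrier of macrophages, was below 2-fold in KO (-1.16 and -0.85). Without cells holding 2 or more markers of other cell types, 7 of 13 lipid-associated and 8 of 20 lysosomal genes were lower past 2-fold in both.

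The other genes lowest in members by the smaller of their ratios in WT and KO were Syngr1, a vesicle protein (-3.90 and -3.84), Atp6v0d2, a subunit of the lysosomal proton pump (-3.83 and -4.48), the phospholipase family member Pld3 (-2.35 and -3.14), Pdpn (podoplanin, -1.96 and -2.14) and the protease Mmp19 (-1.92 and -4.72, with 1 UMI in KO members). The transcription factor Bhlhe41 had a ratio of -2.69 in WT and was at least 8.44-fold lower in KO members, which held no UMI of it.

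Among the interstitial markers, 4 of 18 were higher and 1 lower past 2-fold in both libraries, against 4.88% and 3.56% of all genes. These 2 counts were the same under TMM and RLE. Tmem176b, an ion channel protein of myeloid cells, was at 586 and 599 CPM in members and at 137 and 109 CPM in Spp1-high cells, ratios of 2.10 (1.98 to 2.22) and 2.46 (1.71 to 3.29). Its neighbor Tmem176a had ratios of 1.88 and 2.27 and the tetraspanin Cd81 of 1.37 and 2.06. Cx3cr1 was at 106 CPM in Spp1-high cells of WT and at 1 UMI (6.40 CPM) in those of KO, ratios of 1.72 (1.58 to 1.86) and 5.77 (3.24 to 11.1). Cd68, a lysosomal membrane protein of macrophages, was the marker that was lower (257 and 291 CPM against 884 and 1081 CPM). Ccr2, the receptor that draws monocytes out of the blood, was higher in members, at 623 and 442 CPM against 178 and 64.0 CPM (1.81 and 2.79). Il1b, an inflammatory cytokine, was higher too (1.44 and 2.98), and the chemokine Ccl6 was lower (-1.90 and -2.71). Of 7 perivascular genes assessed in both libraries, Folr2, the folate receptor, was the 1 higher past 2-fold (1.52 and 1.63), against 4.88% of all genes. Of its 17 UMIs in KO members, 9 came from 1 cell. None of 6 perivascular genes was higher with each gene's top member left out, against 63 of all 1531 genes assessed at that setting. In WT alone 8 of 12 perivascular genes were higher, against 14.7% of all genes, and 4 were with TMM or RLE.

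Mgl2 (CD301b), a lectin of dendritic cells and some macrophages, was among the 10 genes highest in members over Spp1-high cells in both libraries. It was at 391 CPM in WT members, in 668 cells, and at 238 CPM in KO members, in 13 cells. Spp1-high cells held 35.8 CPM in WT, a ratio of 3.45 (3.22 to 3.68), and 0 UMIs in KO, so that KO members were at least 12.4-fold higher. Cd72, an inhibitory receptor, was at 94.6 and 128 CPM against 19.4 and 12.8 CPM (2.29 and 3.32). The other 8 genes of this group were Cxcl13, Hc, Mmp3, Chil1, Sftpd, Cxcl15, Itga8 and Lcn2, of which Chil1, Sftpd and Cxcl15 are AT2 markers. Lcn2 is described in the paper as specific to activated AT2 cells. In KO members, 1 cell held 82.4% of the Chil1, 79.7% of the Cxcl15 and 77.9% of the Sftpd UMIs. For Lcn2, Itga8 and Hc the share of 1 cell was 63.0%, 50% and 48.3%. Cxcl13, a chemokine for B cells, was at 47.9 CPM in WT members against 0.427 CPM in Spp1-high cells, but all 23 of its UMIs in KO members came from 1 cell, and so did all 26 UMIs of Mmp3. All 6 mesenchymal markers that could be assessed in both libraries were also higher in members, against 4.88% of all genes. Their median ratio was 1.52 in WT over 8 genes (0.31 for all genes). In KO it was 2.98 over 6 (-0.01 for all genes), or 2.89 with the gene at 0 UMIs taken at its bound. No mesenchymal marker was left past 2-fold once cells with 2 or more markers of other cell types were left out, a step that itself removes cells by mesenchymal genes.

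**Figure D2:**
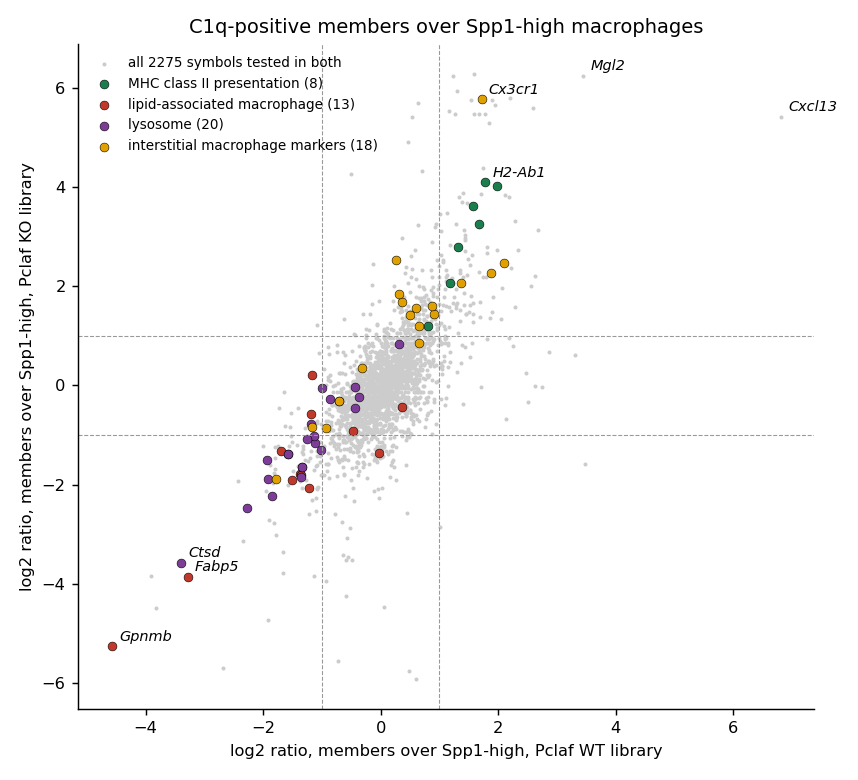
Log2 ratio of members over Spp1-high macrophages in Pclaf WT (x axis) and Pclaf KO (y axis) for the gene symbols assessed in both, with 4 lists in color; dashed lines are at 2-fold, and 0.5 UMIs were added where a sum was 0. Of 8 MHC class II genes, 6 lie past 2-fold to the upper right and Ctss to the lower left, as do 12 of 20 lysosomal and 8 of 13 lipid-associated genes.

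Members were next set against alveolar macrophages (3 or more of the 7 alveolar genes; 651 cells in WT, 51 in KO) and classical monocytes (3 or more of Ly6c2, Ccr2, Plac8, Ms4a4c and Vcan with fewer than 2 C1q genes; 431 and 29 cells). These populations were also cut from measured genes. Over alveolar macrophages, 142 of 2811 genes (5.05%) were higher and 205 (7.29%) lower past 2-fold in both libraries, and 13 of 18 interstitial markers and 6 of 8 MHC class II genes were among the higher ones. The efferocytosis receptor Mertk was the 1 interstitial marker that went the other way, at 181 and 163 CPM in members and 716 and 635 CPM in alveolar macrophages. Of 11 alveolar genes outside the rule, 9 were lower in members. Over monocytes, 95 of 1963 genes (4.84%) were higher and 87 (4.43%) lower, with 12 of 18 interstitial markers and 5 of 8 MHC class II genes higher and 1 interstitial marker, Ms4a6c, lower. Ms4a7, a membrane protein of mature tissue macrophages, was at 246 and 634 CPM in members, 30.2 and 33.7 CPM in alveolar macrophages and 13.5 and 14.7 CPM in monocytes. Interferon-stimulated genes were lower in members than in monocytes for 5 of 7 genes, Ly6c2 was at 32.8 and 17.4 CPM against 654 and 756 CPM, and Plac8 at 150 and 93.0 CPM against 2779 and 3767 CPM, the last pair being part of the monocyte definition. Of 11 lipid-associated genes, 5 were higher in members than in monocytes, whereas 8 of 15 were lower than in alveolar macrophages and 2, the proteases Mmp12 and Mmp14, higher. The median ratio of this list was 0.80 in WT and 1.86 in KO over monocytes, -0.57 and -1.31 over alveolar macrophages and -1.35 and -1.64 over Spp1-high cells.

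Within the WT members, a chemokine and a chemokine receptor marked different cells. At 1000 UMIs per cell, Ccl8, a ligand that attracts monocytes and T cells, was detected without Ccr2 in 90 of 1358 members (6.63%, 5.36 to 8.08), Ccr2 without Ccl8 in 507 (37.3%, 34.8 to 40.0), both in 6 (0.442%, 0.162 to 0.959) and neither in 755 (55.6%). In endothelial cells at the same depth, Ccl8 was seen in 0.268% and Ccr2 in 0.778% (median 2264 UMIs before thinning, against 4217 in members). These cells were chosen without UMIs of Ptprc, Fcer1g and Tyrobp, so their shares are a low estimate of myeloid RNA from outside the cell. Genes of the perivascular kind of macrophage went with Ccl8. F13a1, a clotting factor made by macrophages, was detected in 57.3% (46.8 to 67.3) of the 96 members with Ccl8 and in 6.10% (4.84 to 7.57) of the other 1262. Folr2 was detected in 30.2% (21.3 to 40.4) of the former and 1.58% (0.971 to 2.44) of the latter, and Cd163, the haemoglobin scavenger receptor, in 17.7% (10.7 to 26.8) and 1.51% (0.909 to 2.34). The platelet factor Pf4 was in 67.7% and 15.9% and Mrc1 in 74.0% and 31.0%. Endothelial cells held F13a1 in 0.243%, Folr2 in 0%, Cd163 in 0.0243%, Mrc1 in 0.876% and Pf4 in 3.60%, below both groups of members in each case except that Folr2, Cd163 and F13a1 were rare in members without Ccl8 as well. Selenop, a selenium carrier, was in 87.5% and 31.4%, and in 43.1% of endothelial cells, where RNA made by the cell and RNA from outside it cannot be told apart.

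MHC class II went with Ccr2 instead. H2-Aa was detected in 93.6% (91.1 to 95.5) of the 513 members with Ccr2 and 71.6% (68.4 to 74.6) of the other 845, whereas it was in 55.2% (44.7 to 65.4) of members with Ccl8 and 81.8% (79.5 to 83.9) of those without. H2-Eb1 followed the same order, at 92.8% and 68.6% by Ccr2 and 47.9% and 80.0% by Ccl8, beside 13.6% in endothelial cells. Mgl2 was in 31.6% of members with Ccr2 and 19.8% of those without, while Folr2 was found in 1 of the 513 members with Ccr2 (0.195%) and Cd163 in none, a count that allows up to 0.717%. Mrc1 did not follow Ccr2 (34.3% and 33.8%), and Cx3cr1 differed little by Ccl8 (26.0% and 28.8%). Calcrl, an endothelial receptor, was in 13.5% of members with Ccl8 and 19.4% of those without, and in 12.5% of those with Ccr2 and 23.0% of those without. These shares come from the same cells of 1 library and are descriptions. Without the cells that Scrublet marked, F13a1 was in 55.2% of 87 members with Ccl8 and 6.62% of the rest, and H2-Aa in 94.4% of 443 members with Ccr2 and 72.1% of the rest. Lyve1, the usual marker of the perivascular kind, went with both perivascular and endothelial genes. Folr2 was in 15.2% (8.58 to 24.2) of the 92 members with Lyve1 and 2.76% (1.93 to 3.82) of the others, and Cd163 (12 of 92 cells against 1.90%) and F13a1 (23 of 92 against 8.61%) followed the same order. Calcrl was in 60.9% and 16.0%, and Lyve1 itself was detected in 38.3% of endothelial cells.

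**Figure D3:**
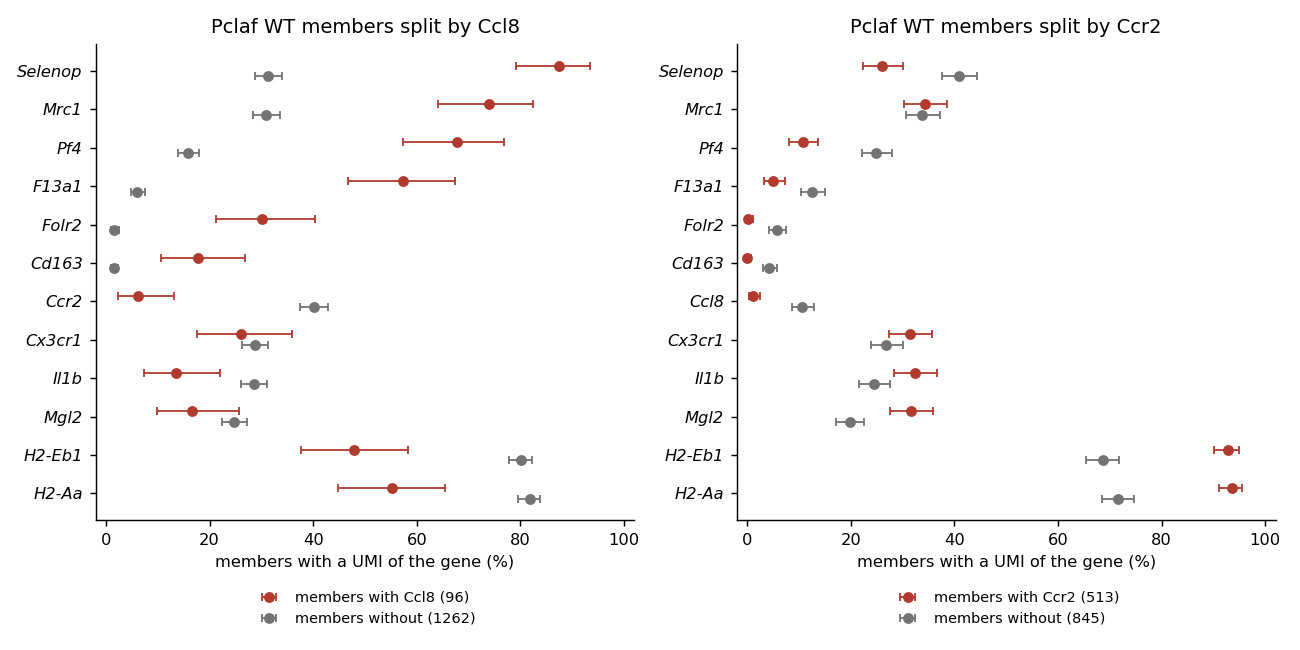
Share of Pclaf WT members (percent, with Clopper-Pearson 95% intervals) in which each of 12 partner genes was detected at 1000 UMIs per cell, for the 96 members with and 1262 without Ccl8 and the 513 with and 845 without Ccr2. F13a1, Folr2, Pf4 and Cd163 are more frequent with Ccl8, and H2-Aa and H2-Eb1 are more frequent with Ccr2.

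Among the KO members, 30 could be thinned to 1000 UMIs, and of these 1 had Ccl8 without Ccr2, 9 had Ccr2 without Ccl8, none had both and 20 had neither. At this number of cells, shares as far apart as 0.0844% and 17.2% for Ccl8 cells lie within the interval. MHC class II varied widely from cell to cell: the 13 genes summed to a median of 27 UMIs per 1000 in WT (quartiles 9 and 41, 35 cells at 0) and 10.5 in KO (quartiles 4 and 46.25, 3 cells at 0). The 21 lysosomal genes summed to medians of 11 and 15 and the 19 lipid-associated genes to 4 and 3.

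For the comparison of KO with WT members, the knocked-out gene comes first. Over all kept cells, Pclaf was at 39.3 CPM (38.1 to 40.6) in WT, in 1261 cells, and at 5.19 CPM (4.76 to 5.65) in KO, where 254 cells held 529 UMIs. Members had 81 Pclaf UMIs in 53 WT cells (11.7 CPM, 9.25 to 14.5) and 0 in KO, a level below the KO floor of 17.4 CPM, so a loss of Pclaf in members was not detectable at this depth. Spp1-high cells held 15.1 CPM in WT and 3 UMIs in KO. Which part of the transcript the knockout removes, relative to the counted tags, is not given in the sources used here.

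Of 2799 genes assessed between KO and WT members, 99 (3.54%) were higher and 207 (7.4%) lower past 2-fold in KO, and the median ratio was -0.13. The rule did not use this contrast, but it has 1 library on each side, and the KO side rests on 42 cells. Higher genes had a median of 26 KO UMIs and lower genes of 8, with 27 lower genes at 3 or fewer. Single cells weighed heavily on the higher genes: for 38 of 99, more than 50% of the KO UMIs came from 1 member, and when each gene's top member was left out of both libraries, 47 were still past 2-fold and 8 changed sign, with the minimum of UMIs not applied again. All 207 lower genes were still past 2-fold, although dropping 1 of 42 cells lowers the KO sums more than dropping 1 of 1495 lowers those of WT. Without cells that held 2 or more markers of other cell types, 61 genes were higher and 101 lower. TMM and RLE factors moved the ratios by 0.06 and 0.08.

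**Figure D4:**
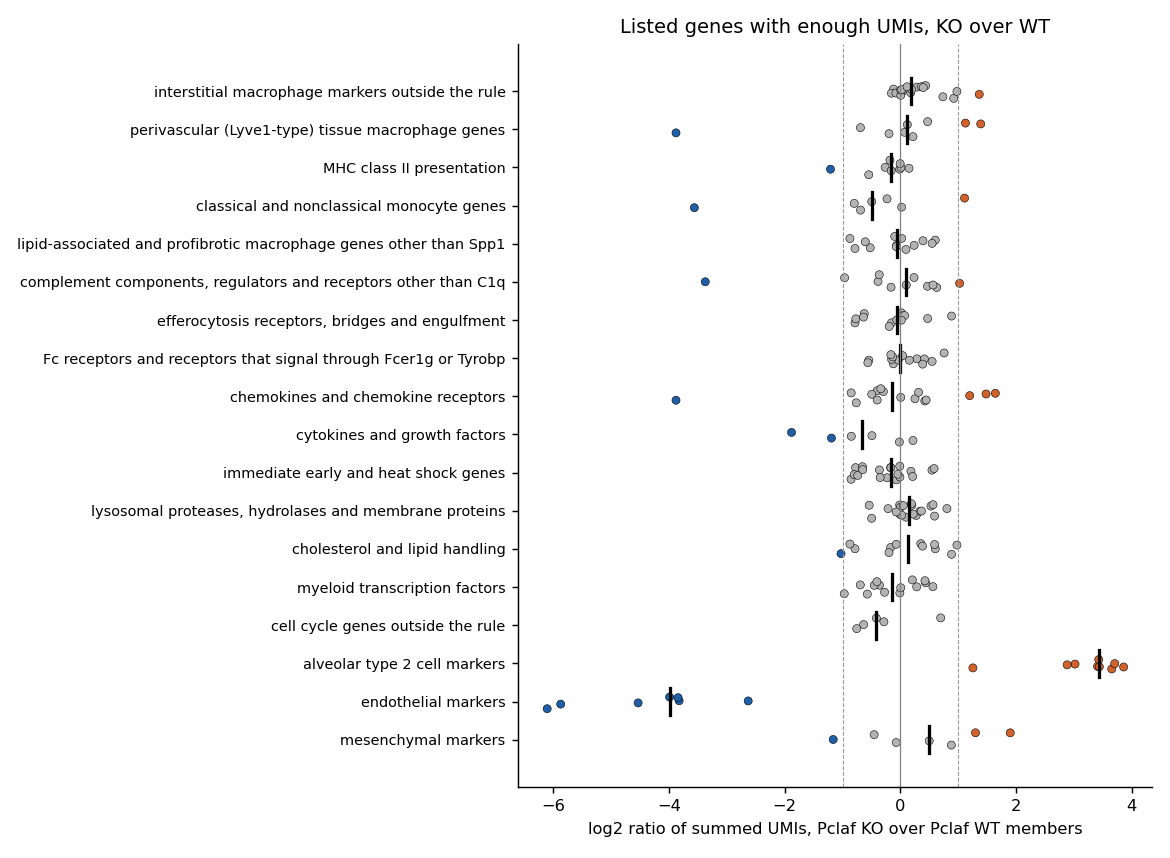
Log2 ratio of KO over WT members for the assessed genes of 18 lists (points), with genes higher past 2-fold in orange and lower in blue, medians as black bars and dashed lines at 2-fold; 0.5 UMIs were added where a sum was 0. The AT2 list lies above and the endothelial list below 2-fold, while the medians of the macrophage lists lie between the 2-fold lines.

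Many of the largest ratios belonged to marker genes of other cells. All 9 assessed AT2 markers were higher in KO members (median 3.43), and the 10 genes highest in KO among those with at least 20 UMIs expected were Sftpa1, Cxcl15, Sftpc, Sftpd, Chil1, Ank3, Slc34a2, Wfdc2, Sftpb and Scgb3a2. With all 3 C1q genes required, the AT2 markers Cxcl15 (-1.01), Slc34a2 (-0.0018), Sftpb (-0.075) and Napsa (-0.35) changed sign, as did Ank3 (-1.59). Sftpc, the surfactant protein of AT2 cells, was at 1466 CPM in the WT members and 15903 CPM in those of KO, a ratio of 3.44, and in endothelial cells at 969 and 12258 CPM. A single KO member held 2582 of the 3667 AT2 marker UMIs (70.4%), which made up 24.6% of its 10486 UMIs. Without the top member of each library Sftpc had a ratio of 2.06. The club cell secretoglobin Scgb1a1 (2340 and 15572 CPM) had a ratio of 2.73, and of 0.31 without the top member. With at least 500 detected genes, Scgb1a1 was at -0.88 and Scgb3a2 at -0.92. In the other direction, all 7 assessed endothelial markers were lower in KO members (median -3.99, or -3.83 with genes at 0 UMIs taken at their bound). Calcrl was at 495 and 34.9 CPM (-3.83), and Cdh5 and Pecam1, the junction proteins that define endothelium, were at 200 and 170 CPM in WT and at 0 UMIs in KO, at least 11.5-fold and 9.77-fold lower. Ptprb (279 and 11.6 CPM), Epas1 (425 and 52.3 CPM), Ly6a, Ctla2a, Ramp2 and Bmpr2, which endothelial cells also express, were among the 10 lowest with at least 20 UMIs expected. S100a9 (459 and 5.81 CPM) and S100a8 (365 and 17.4 CPM), alarmins of neutrophils, were among them as well, the first at a ratio of -6.30 (-11.61 to -3.82) with 1 UMI in KO. The remaining gene of the 10 was Ccl8, which is described below with the perivascular list. The WT members held Ccl5, a chemokine of T and NK cells, at 146 CPM and the KO members at 0 UMIs, at least 8.36-fold lower. Of 7 mesenchymal markers, Gsn (1.30) and Pdgfra (1.90) were higher and Col3a1 (-1.16) lower, but without the top member Gsn (0.70) and Pdgfra (0.63) were no longer past 2-fold. The AT2 and endothelial shifts run the same way as the shares given above for Spp1-high, alveolar and monocyte cells. Ccl5 was at 212 and 301 CPM in monocytes of WT and KO, and at 91.8 CPM and 0 UMIs in alveolar macrophages. Of the KO monocytes, 1 cell held 2 or more T and NK cell markers. The 8 neutrophil markers were also lower in KO in Spp1-high, alveolar and monocyte cells. Their sums in WT and KO were 1097 and 95.5 CPM in monocytes, 383 and 96.0 CPM in Spp1-high cells and 352 and 182 CPM in alveolar macrophages. For AT2, endothelial and neutrophil genes, a difference between the cells cannot be told apart from a difference in what each library carried over.

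**Figure D5:**
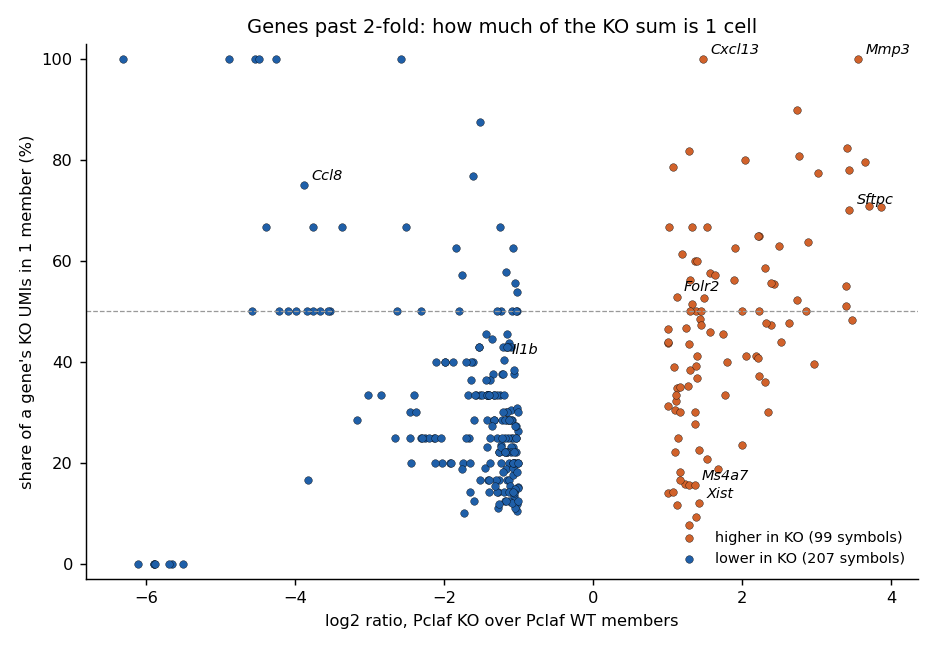
Share of a gene's KO UMIs that came from 1 member (percent, y axis) against its log2 ratio of KO over WT members (x axis) for the 99 genes higher and 207 lower past 2-fold; genes with 0 KO UMIs are drawn at 0%, and the dashed line marks 50%. For 38 of the higher genes the share is over 50%.

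Most macrophage genes were at like levels in both genotypes. No gene was past 2-fold among the 13 assessed lipid-associated genes (median -0.06), 20 lysosomal genes (0.14), 13 efferocytosis genes (-0.06), 14 Fc receptor and related genes (0.00), 14 myeloid transcription factors (-0.14), 19 immediate early and heat shock genes (-0.17), 3 iron genes (0.40), 5 cell cycle genes (-0.42) or 3 nuclear-retained RNAs (0.47), against 3.54% and 7.4% of all genes. With each gene's top member left out, genes of 4 of these lists were lower past 2-fold: 3 of 12 lipid-associated genes (Mmp12 at -1.63, Cd36 at -1.62 and Lpl at -1.19), 2 of 12 efferocytosis genes, 3 of 14 transcription factors and 3 of 19 immediate early and heat shock genes. At this setting 346 of all 2395 assessed genes were lower, a larger share than in the main values, so these counts do not set the lists apart. Cd36 was at 3017 and 2385 CPM in endothelial cells of WT and KO. Its ratio in members was 0.91 without cells holding 2 or more markers of other cell types. Of 18 interstitial markers, 1 was higher and none lower (median 0.19). That gene was Ms4a7, at 246 CPM (235 to 258) in WT, in 571 of 1495 members, and 634 CPM (520 to 764) in KO, in 21 of 42. Its ratio was 1.36 (1.07 to 1.64), 1.16 (0.84 to 1.47) without the top member, and 1.40 without cells holding 2 or more markers of other cell types. At 1000 UMIs it was detected in 19.7% (17.6 to 22.0) of WT and 40.0% (22.7 to 59.4) of KO members, beside 0.341% and 0% in endothelial cells. Ms4a7 was at 335 and 847 CPM (WT and KO) over members with Xist but no Y-linked UMI (278 and 18 cells), at 211 and 329 CPM over those with Y-linked UMIs but no Xist (553 and 5 cells), and at 268 and 289 CPM over those with neither (599 and 19 cells). The part of the unlike Xist shares in the Ms4a7 ratio was not tested. Apoe was next in this list, at 7525 and 14816 CPM, a ratio of 0.98 (0.92 to 1.03) that did not reach 2-fold, and of 0.77 (0.70 to 0.83) without the top member. With TMM and RLE factors it was 1.04 and 1.05, just past 2-fold. In Spp1-high cells Apoe had a ratio of 0.66 (0.62 to 0.70), in alveolar macrophages of 0.04 (-0.19 to 0.26) and in monocytes of -0.19 (-0.38 to 0.01). Pf4 (0.92), Cd63 (0.80) and Cd81 (0.73) were also above 0 without reaching 2-fold.

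Of 9 assessed perivascular genes, Folr2 and Cbr2 were higher and Ccl8 lower past 2-fold, with a median of 0.12, against 3.54% higher and 7.4% lower of all genes. Ccl8 was at 342 CPM in WT, in 143 members, and at 23.3 CPM in KO, in 2 members, a ratio of -3.88 (-5.76 to -2.52), and of -3.90 without cells holding 2 or more markers of other cell types. Folr2 (45.3 and 98.8 CPM) had a ratio of 1.12 but of 0.11 without the top member, and Cbr2, a carbonyl reductase also made by airway cells, of 1.39 and 0.95. With each gene's top member left out, none of 8 was higher, and Ccl8 and F13a1 (-1.10, -2.02 to -0.32) were lower. At that setting, 28 of all 2395 assessed genes were higher and 346 lower. Of 16 chemokines and receptors, Ccl8 was the gene lower past 2-fold, and Ccl2, Cxcl13 and Cxcl14 were higher, each with more than 50% of its KO UMIs in 1 member. Ccl2 had a ratio of 1.20, and of -0.08 without the top member. At that setting Cxcl2 (-2.95, -4.01 to -2.07) and Ccl6 (-1.06, -1.47 to -0.67) were lower past 2-fold. For Cxcl2, 36 of the 46 KO UMIs came from 1 cell. The receptors Ccr2 (623 and 442 CPM, -0.50) and Cx3cr1 (347 and 349 CPM, 0.01) were within 2-fold.

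Of 6 assessed cytokine genes, Il1b and Osm were lower past 2-fold, against 7.4% of all genes. Il1b was at 691 CPM in WT, in 624 of 1495 members, and 302 CPM in KO, in 8 of 42, a ratio of -1.19 (-1.62 to -0.80). Without the top member, which held 40.4% of the KO UMIs, the ratio was -1.89 (-2.44 to -1.38). Il1b was at 595 and 472 CPM (WT and KO) over members with Xist but no Y-linked UMI, at 730 and 89.6 CPM over those with Y-linked UMIs but no Xist, and at 732 CPM and 0 UMIs over those with neither, the 19 KO cells of which had a median of 886 UMIs. In Spp1-high cells Il1b had a ratio of -2.73 (-4.18 to -1.60), in alveolar macrophages of -0.84 (-1.25 to -0.45) and in monocytes of 0.03 (-0.25 to 0.30), and no difference between these populations was tested. Osm, a cytokine of the IL-6 family, was at 107 and 29.1 CPM (-1.88), and the other 4 assessed cytokine genes did not pass 2-fold (median of the 6, -0.67). Without cells holding 2 or more markers of other cell types, Il1b had a ratio of -0.72 and Osm of -1.92, and none of the 4 cytokine genes that still had enough UMIs was counted, as was also the case with all 3 C1q genes required (Il1b at -0.97).

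The MHC class II genes were near 0 as a list (median -0.16 over 9), with Cd74 at 0.15 (0.08 to 0.21), or -0.043 without the top member, and 2 of the 9 above 0. Per cell at 1000 UMIs, as given above, the median sum of the list was 27 in WT and 10.5 in KO, with 2.58% and 10.0% of cells at 0. Ciita was lower past 2-fold, at 134 CPM in 508 WT members and 58.1 CPM in 6 KO members, a ratio of -1.21 (-2.27 to -0.32). With all 3 C1q genes required it was -0.85 and no longer counted, with members thinned to 1000 UMIs it was -0.45, and at that depth Ciita was found in 11.7% of WT and 10.0% of KO members. Among single genes of other lists, Ear2 (173 and 5.81 CPM, 1 UMI in KO) and Olr1 (-2.58) of the alveolar list, Ace (137 and 11.6 CPM, -3.56) of the monocyte list, Cd93 (-3.37) of the complement list and Abcg1 (-1.03) of the lipid list were lower. Abcg1 had 8 KO UMIs in 4 cells, 4 of them in 1 cell, and a ratio of 1.00 with cells thinned before the rule. Ace and Cd93 are also endothelial genes. Hp (1.11), an acute-phase protein of the monocyte list, and C4b (1.02) were higher. Without the top member, Hp was at 1.01 (-0.07 to 1.92) and C4b at -0.40, and neither was counted. No gene of the monocyte list was counted as higher with under 10% mitochondrial UMIs, with at least 500 genes or with all 3 C1q genes required. Xist was higher in KO members (217 and 581 CPM, 1.42), as the shares of cells with Xist UMIs given above also show.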

How the data were processed

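scRNA-seq was performed with 10x Genomics droplets on 2 libraries of mouse lung cells described as sorted, 1 Pclaf WT and 1 Pclaf KO. The authors deposited UMI counts per gene and barcode, raw and not normalized, for 31053 genes. The submitters' processing notes name Cell Ranger 3.1.0, STAR and GRCm38 (mm10), whereas the matrix headers name version 5.0.0. Free RNA was not removed from the counts, and no per-sample column was left unmapped.

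Barcodes were filtered and members selected as the report states, and the members and gene lists were chosen with earlier results of these data known. UMIs were summed over the cells of a population and divided by the total, times 1000000 (CPM). Ratios of 2 sums have the exact conditional Poisson interval, with 0.5 UMIs added to both where 1 was 0, in which case only a bound at 3 counts is printed. Named genes are Pclaf, the 10 highest and 10 lowest ratios past 2-fold with at least 20 UMIs expected, the 10 genes highest and 10 lowest against Spp1-high cells by the smaller ratio of both libraries, the 3 most abundant genes and those past 2-fold of each list, and the genes of the rule, except genes not reported here. Further genes named within a list were chosen after their values were seen. Cells were thinned to 1000 UMIs with a fixed seed.

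Scrublet (scanpy 1.11.5) marked no barcode at its default expected rate. It was rerun at an expected 0.008 per 1000 kept cells (24.1% in WT, 12.5% in KO), a rate set after this was seen, and marked 2642 WT (8.75%) and 422 KO kept cells (2.70%). Doublets stayed in the main values. Promoter sequences were taken from RefSeq (GRCm38.p6). Python 3.11.15, numpy 2.4.6, scipy 1.17.1, pandas 2.3.3, matplotlib 3.10.9, R 4.3.3 and edgeR 4.0.16 (normalization factors only) were used. The interval and the count of genes past 2-fold were checked on simulated counts.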

Additional observations from a re-analysis of the deposited data

Results flagged for a closer look

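In 2 genes the ratio of members over Spp1-high macrophages was past 2-fold in both libraries but in opposite directions. Retnla, a secreted protein of type 2 immune responses, had a log2 ratio of 3.48 in Pclaf WT and of -1.60 in Pclaf KO. WT members held 1689 Retnla UMIs in 84 cells, 530 of them in 1 cell, and KO members 63 UMIs in 6 cells, 46 of them in 1 cell, while KO Spp1-high macrophages held 173 UMIs, 159 of them in 1 cell. Pdzd2, a PDZ domain protein, had a ratio of 1.02 in WT and of -2.86 in KO, where members held 5 UMIs and Spp1-high macrophages 33, 27 of them in 1 cell. The difference between the libraries was not tested for either gene.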

How the results depend on the processing

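The precision of every KO value is limited by 42 cells and 172039 UMIs. No paired analysis was possible because there is 1 library per genotype and nothing in the labels pairs them, and no library could be left out for the same reason. The share of members in kept cells stayed higher in WT than in KO under every alternative run, but the WT share moved to 5.46% with under 10% mitochondrial UMIs, 5.74% with at least 500 detected genes, 4.46% and 5.47% with Spp1 under 5 and under 20 per 10000, 4.59% without Scrublet doublets and 7.05% without cells holding 2 or more markers of other cell types. With all 3 C1q genes required, the shares were 3.85% and 0.147%, and with cells thinned to 1000 UMIs before the rule 3.20% and 0.0965%.

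Counts of genes past 2-fold depended strongly on the number of UMIs. For KO over WT, 39 genes were higher and 91 lower with all 3 C1q genes required, 3 and 2 with cells thinned before the rule, 16 and 12 with members thinned before summing, 61 and 101 without cells holding other markers, 194 and 370 with at least 5 UMIs expected, 42 and 58 with at least 20, and 434 and 550 with no filter. With each gene's top member left out and the minimum of 10 UMIs applied again, 28 were higher and 346 lower, and by the mean of per-cell CPM 446 were lower. Against Spp1-high macrophages in both libraries, 73 genes were higher with all 3 C1q genes required, 190 with at least 5 UMIs expected, 51 with at least 20, 240 with no filter and 63 with each gene's top member left out. There, 4 were higher and 15 lower with cells thinned before the rule, 6 and 18 with members thinned before summing, and 68 and 52 without cells holding other markers. With TMM factors 71 were higher and 123 lower, and with RLE factors 72 were higher. The settings that leave out the top member were chosen after seeing the data.

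Some KO over WT ratios changed sign, and the cause was not tested beyond what the settings themselves leave out. Changes are listed for named genes whose main interval left out 0 and for list medians of at least 1 in size. With all 3 C1q genes required this was so for Cxcl15 (-1.01), Ank3 (-1.59), Slc34a2 (-0.0018), Sftpb (-0.075), Lcn2 (-0.18), Napsa (-0.35) and Mgp (-0.074). With at least 500 genes, Scgb3a2 was at -0.92, Scgb1a1 at -0.88 and the median of the airway list at -1.15. With each gene's top member left out, that median was at -0.91, Cxcl13 at -3.82, Mmp3 at -1.73, C4b at -0.40, Ccl2 at -0.079, Cd74 at -0.043, Mgp at -0.024 and Clec4n at -0.0021. Without cells holding other markers, Itga8 was at -0.10, Cd74 at -0.17, Cd36 at 0.91, Mgp at -0.20 and Gsn at -0.99. With cells thinned before the rule, H2-Aa was at 0.33, Dock2 at 0.070, Clec4n at -0.12, Ccl2 at -1.31, Cd36 at 0.13, Abcg1 at 1.00, Hopx at 0.0020, Cldn5 at 0.030, Bgn at -0.41 and Col3a1 at 0.15. The remaining changes of this kind were Cd74 (-0.084) with Spp1 under 5 per 10000, Ccl6 (0.21) by the mean of per-cell CPM, Ccl2 (-0.19) with under 10% mitochondrial UMIs, Ifitm3 (0.051) with members thinned before summing, and the median of the X and Y list (-0.86) with at least 5 UMIs expected or no filter. Of the other values for named genes under an alternative, 2283 stayed within their counting interval and 361 moved beyond it. Ratios whose main interval held 0 could change sign among these as well. With each gene's top member left out, Fabp5 (-0.39) and Fn1 (-0.50) did so.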
